A study of Homo sapiens with 4 samples.

Results

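The members were the long intergenic RNA models of the deposited transcript tables that held reads in Huh7 cells. Rows whose identifier starts with "linc" were taken when their read count reached 50 in 2 or more of the 4 libraries, and rows of 1 chromosome with the same count in all 4 libraries were counted once. This left 6287 models of 21536 long intergenic rows, among 58146 transcript models in all. Read counts of both groups chose the members, so which models are present is a description. The minimum was reached in all 4 libraries by 5016 models, in 3 by 657 and in 2 by 614. Both mock libraries alone carried 99 models past the minimum, and both H2O2 libraries alone carried 74. Such models passed through the group in which they were high, so their difference is partly set by the rule. Just inside the minimum, 238 models had a second highest count of 50 to 54, and just outside it 221 rows had 45 to 49.

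Huh7 is an established human hepatocellular carcinoma line, and every library came from it. The 2 mock libraries came from cells in mock medium, and the 2 H2O2 libraries from cells given hydrogen peroxide at 300 µM; all were taken at day 4. The titles call 1 library of each group H and the other Q, and the sources used here do not give what the letters stand for. Both H libraries alone carried 61 models past the minimum of reads, and both Q libraries alone carried 315. In these models a difference between letters is partly set by the rule. Nothing says that the libraries came from separate cultures, so p-values measure the spread between these samples, which may be technical. In bulk RNA, fewer cells with a transcript and less of it per cell cannot be told apart.

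Long intergenic noncoding RNAs are transcribed by RNA polymerase II from loci between protein-coding genes, and many are capped, spliced and polyadenylated. As a class they are less abundant and more specific to a cell type than mRNAs, many stay in the nucleus, and many are short-lived because the nuclear exosome degrades them. Some act on chromatin or on neighbouring genes, as HOTTIP does at the HOXA cluster, while for most no function is known.

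The files give a chromosome and a strand for each model but no positions, so a sequence could be shown only for models that carry a gene symbol. Of 20 symbols carried by members, 12 had a promoter (250 bases before to 50 bases after the start) in the RefSeq table of build GRCh38.p14. The promoters below belong to HOTTIP (chr7:27200171-27200470, plus strand) and LINC01163 (chr10:128285700-128285999, plus strand), whose models were lower in both H2O2 libraries, and to GAS5 (chr1:173868996-173869295, minus strand), a symbol-carrying model of high read count whose groups overlapped. Capitals mark matches, on either strand, to CCAAT (the element bound by the factor NF-Y) or to the GC box GGGCGG. The TATA box, searched as TATAAA, had no match in these windows. The core of the antioxidant response element, searched as TGACNNNGC, had none either.
HOTTIP: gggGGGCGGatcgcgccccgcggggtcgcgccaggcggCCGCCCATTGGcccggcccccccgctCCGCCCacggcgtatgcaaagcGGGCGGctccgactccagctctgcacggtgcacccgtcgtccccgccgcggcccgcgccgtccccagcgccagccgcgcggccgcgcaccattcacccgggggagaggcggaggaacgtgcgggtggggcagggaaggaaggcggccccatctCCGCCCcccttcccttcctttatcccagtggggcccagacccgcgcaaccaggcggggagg
LINC01163: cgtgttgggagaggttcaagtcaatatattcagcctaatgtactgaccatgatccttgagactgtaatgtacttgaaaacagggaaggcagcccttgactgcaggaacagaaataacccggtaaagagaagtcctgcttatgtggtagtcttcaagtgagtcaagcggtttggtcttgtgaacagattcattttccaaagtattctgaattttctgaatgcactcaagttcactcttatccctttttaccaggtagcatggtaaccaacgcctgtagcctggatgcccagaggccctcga
GAS5: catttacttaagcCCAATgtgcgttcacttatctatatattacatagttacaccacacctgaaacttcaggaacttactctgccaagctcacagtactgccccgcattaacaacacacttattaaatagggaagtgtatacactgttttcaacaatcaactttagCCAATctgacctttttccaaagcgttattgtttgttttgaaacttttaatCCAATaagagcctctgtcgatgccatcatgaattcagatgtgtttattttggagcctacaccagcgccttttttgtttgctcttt

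The HOTTIP window had 5 matches to the GC box and 1 to the CCAAT element. The GAS5 window had 3 matches to the CCAAT element, and the LINC01163 window had no match to any of the 4 motifs. Among all 35116 promoters of the table, 44.95% held the GC box, 34.6% the CCAAT element, 13.3% the antioxidant core and 11.5% the TATA box. The GC content was 78.0% for HOTTIP, 44.7% for LINC01163 and 37.7% for GAS5, beside a median of 58.7% over all promoters. These matches describe letters in a window, not binding.

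The libraries held 78126878 to 88409567 mapped read mates, and the members received 6061959 to 6454642 counts; the median member had 160 to 216 reads in a library. Each library's count over all models was above its number of mapped mates, so a read could be counted in more than 1 model. All 10 hepatocyte and liver carcinoma markers had reads, with a summed level of 17373 and 6752 CPM in mock H and Q and 19519 and 13157 CPM in H2O2 H and Q. Markers of blood cells summed to 16.2 to 24.9 CPM, of endothelium to 2.20 to 3.38 CPM and of fibroblasts and stellate cells to 14.1 to 28.8 CPM. CPM is the count scaled to the library size, after TMM normalisation everywhere except in these marker sums.

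The comparison of H2O2 with mock asked how these RNAs differed at day 4. Most members were somewhat lower in the H2O2 libraries. Their median log2 fold change (H2O2 over mock, in this and all later values) was −0.17, with quartiles of −0.41 and 0.14, and 4071 of 6287 (64.8%) lay below 0. Over all 21465 features tested the median was −0.02 with 52.3% below 0, and over 14637 mRNA genes it was 0.02. For the 541 features that were neither mRNA nor long intergenic it was 0.17. The 3296 members with l2 in the identifier had a median of −0.085 with 58.2% below 0, and the other 2991 had −0.23 with 72.0%. Within the letter H libraries the members' median was −0.20, and within the letter Q libraries it was −0.09. Both letters gave a lower value in H2O2 for 2892 members (46.0%) and a higher one for 1426 (22.7%), beside 35.1% and 33.9% of all features. The letters disagreed in direction for 1969 members.

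Both H2O2 libraries lay below both mock libraries for 1960 members (31.2%) and above both for 799 (12.7%). The same held for 21.6% and 18.8% of all features tested, and for 17.7% and 21.4% of the features that were not members. With 2 libraries against 2, a two-sided permutation test cannot give a p below 0.333, so these counts carry no test. EdgeR's quasi-likelihood test called 0 members and 0 other features at an adjusted p under 0.05, and the lowest adjusted p of a member was 0.402. At an unadjusted p under 0.05 it gave 361 members (269 lower, 92 higher), which is 5.74% of them beside 7.08% of all features tested (4.02% lower, 3.06% higher). DESeq2 called 23 members (21 lower, 2 higher), which is 0.366% of them beside 0.764% of all features tested. Limma called 0 members, with 281 at an unadjusted p under 0.05. On the limma scale of log2(FPKM + 1) the median of the members was −0.065, and 1315 were lower and 959 higher without overlap. The shares of all features on that scale are not given here, so the limma counts are not read as a result about the members. Between libraries of 1 group, the members' median log2 difference of Q over H was 0.049 in mock and 0.11 in H2O2. Both were smaller in size than the median of −0.17 over all 4 libraries. The value of 0.11 was larger in size than the median of −0.09 within the letter Q libraries. For single members the median absolute difference between mock Q and mock H was 0.33.

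The members received 6.04% and 5.98% of the reads of all features tested in mock H and Q, and 5.49% and 5.38% in H2O2 H and Q. Both H2O2 shares were lower than both mock shares. Without 3 models that hold many reads and are described below, the shares were 4.85% and 5.38% in mock and 4.45% and 4.72% in H2O2, in the same order of groups.

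The shift was present at every level of reads. Among the 1817 members with a mean of under 100 reads the median log2 fold change was −0.21, among the 3563 with 100 to below 1000 reads it was −0.17, among the 851 with 1000 to below 10000 reads −0.08 and among the 56 with 10000 or more −0.28. The mRNA genes of the same classes had medians of −0.18, −0.09, 0.05 and 0.06. In the lowest class, members and mRNA genes therefore had nearly the same median, while in the highest they lay on opposite sides of 0. Both H2O2 libraries lay below both mock libraries for 28 of the 56 models in the highest class, and above both for 0 of them. The same held for 21.6% and 18.8% of all features tested, and for 12.97% and 22.8% of the mRNA genes of this class. These 56 models held 44.4% of all member reads, and the 1817 lowest held 1.96%.

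**Figure D1:**
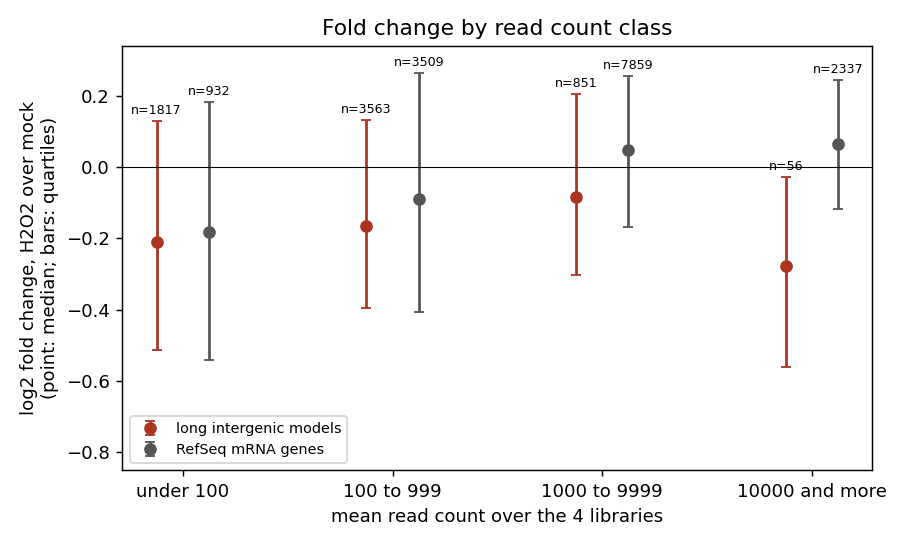
Median log2 fold change of H2O2 over mock (y axis) by class of mean read count over the 4 libraries (x axis), for the long intergenic models (red) and RefSeq mRNA genes (grey); bars span the quartiles and n is the number of features. The models' medians are −0.21, −0.17, −0.08 and −0.28 from the lowest to the highest class, and the mRNA medians are −0.18, −0.09, 0.05 and 0.06.

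The 56 models of the highest class came from 13 chromosomes, and several of these held runs of models with similar counts. On the plus strand of chromosome 11 it held 14 models, and 13 of them were lower in both H2O2 libraries. Of these, 11 models with nearly consecutive catalogue numbers (TCONS_l2_00004565 to TCONS_l2_00004577) had 161 to 205 CPM in mock H, 114 to 138 CPM in mock Q, 78.1 to 94.9 CPM in H2O2 H and 77.2 to 93.3 CPM in H2O2 Q. Both H2O2 libraries had nearly the same level, below either mock library, and the 11 log2 fold changes lay between −0.89 and −0.82 (SE 0.23 to 0.26, adjusted p 0.687). These runs were singled out after their values were seen.

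Chromosome 22 had 5 such models on the plus strand, all lower in H2O2, with log2 fold changes of −0.56 to −0.52. Their CPM was 126 to 148 in mock H and 152 to 188 in mock Q, against 78.4 to 98.0 in H2O2 H and 110 to 137 in H2O2 Q. On chromosome 21 there were 3 models on the minus strand, also all lower, with log2 fold changes of −0.41 to −0.40. Chromosome 1 had 2 on the plus strand at −0.51 and −0.49. Models of 1 run are not separate observations of the treatment, since nearly equal counts may come from the same reads.

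The 10 models with the most reads did not separate the groups. TCONS_l2_00030085, on the minus strand of chromosome 9, had 532372 reads in mock H and 280935 in mock Q, against 505774 in H2O2 H and 319211 in H2O2 Q. TCONS_l2_00029098, on the plus strand of the same chromosome, had 511162 and 268761 reads in mock and 484803 and 305319 in H2O2. Both were high in the H libraries and low in the Q libraries of either group, and their log2 fold changes were −0.05 (SE 0.54) and −0.05 (SE 0.54). TCONS_l2_00026417 on chromosome 7 had the same profile at 195240, 103180, 183508 and 118483 reads. All 3 moved with the mRNA of EEF1A1, a translation elongation factor encoded on chromosome 6, which had 2319215, 1243558, 2263223 and 1398296 reads in the same order. Over TCONS_l2_00030085 the EEF1A1 count was 4.36, 4.43, 4.47 and 4.38 times as high in the 4 libraries, and over TCONS_l2_00026417 it was 11.9, 12.1, 12.3 and 11.8 times as high. Between 9.01% and 10.6% of mates aligned to more than 1 place; whether EEF1A1 reads were counted in these models was not tested. These ratios were examined after the values of the 3 models had been seen.

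The other 7 of the 10 were on chromosome 3, with 3 on the minus strand (TCONS_00007196, TCONS_00007197 and TCONS_00006556) and 4 on the plus strand (TCONS_00006916 to TCONS_00006919). TCONS_00007196 measured 1203 and 1238 CPM in mock H and Q and 1544 and 1121 CPM in H2O2 H and Q. The mock libraries lay between the H2O2 libraries, and the log2 fold change was 0.13 (SE 0.28, adjusted p 0.910). The remaining 6 kept the same order of libraries, with log2 fold changes of 0.12 to 0.14. Since models on opposite strands kept 1 profile and the use of strand in counting is not given, reads of overlapping or opposite transcripts cannot be told apart here.

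**Figure D2:**
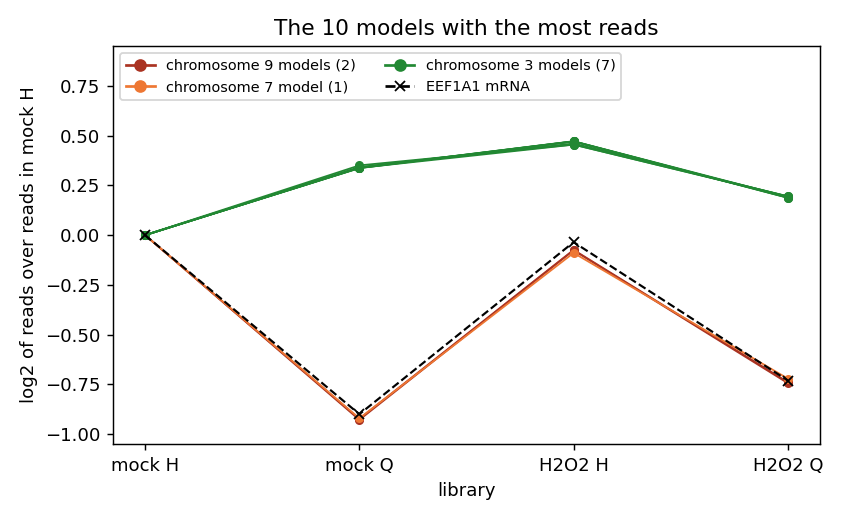
Read count of each of the 10 models with the most reads, as log2 of the count over that in mock H (y axis), in the 4 libraries (x axis); lines join the values of 1 model and carry no order of libraries, and the dashed line is EEF1A1 mRNA. The chromosome 9 and chromosome 7 models run with EEF1A1 and are low in both Q libraries, while the 7 chromosome 3 models share another profile that is highest in H2O2 H.

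Near-equal counts were common among the members. Counting as near-equal those models of 1 chromosome whose counts differed by no more than 5% in every library, 1062 members (16.9%) fell into 469 groups, 27 of which held both strands. Counted once per group, 5694 models were left.

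The lower levels in H2O2 were spread over the chromosomes. The median of the members was below 0 on 23 of 23 chromosomes (Y left out), and below the median of the mRNA genes of the same chromosome on 23 of 23. The mRNA genes were not matched to the members by read count. Their median of the mean read count was 2628, against 191 for the members. Among mRNA genes under 100 reads and with 100 to below 1000 reads, the medians were also below 0 (−0.18 and −0.09). More members were lower in both H2O2 libraries than higher in both on 22 of the 23. The lowest medians were on chromosome 22 (−0.33, 209 members), chromosome 21 (−0.32, 113 members) and chromosome 17 (−0.27, 317 members). The highest were on chromosome 14 (−0.01, 137 members) and chromosome 8 (−0.03, 170 members). On chromosome 8, 31 members (18.2%) were lower in both H2O2 libraries and 38 (22.4%) higher, beside 21.6% and 18.8% of all features tested. Within the letter H libraries all 23 medians were below 0, and within the letter Q libraries 22 were. On the scale of log2(FPKM + 1) the median was below 0 on 17 of the 23 chromosomes.

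Chromosomes did not differ in the same way within both letters. On chromosome 1, which had the most members (758), the H libraries gave a median of −0.27 and the Q libraries one of −0.07. On chromosome 20 these values were −0.24 and −0.00, while on chromosome 16 they were −0.26 and −0.21. Across the 23 chromosomes, the members' median went with that of the mRNA genes (Pearson's r 0.62, Spearman's rho 0.60, as a description; all points come from the same 4 libraries). Chromosome 12, for example, had −0.23 for members and −0.06 for mRNA genes, and chromosome 2 had −0.06 and 0.08.

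**Figure D3:**
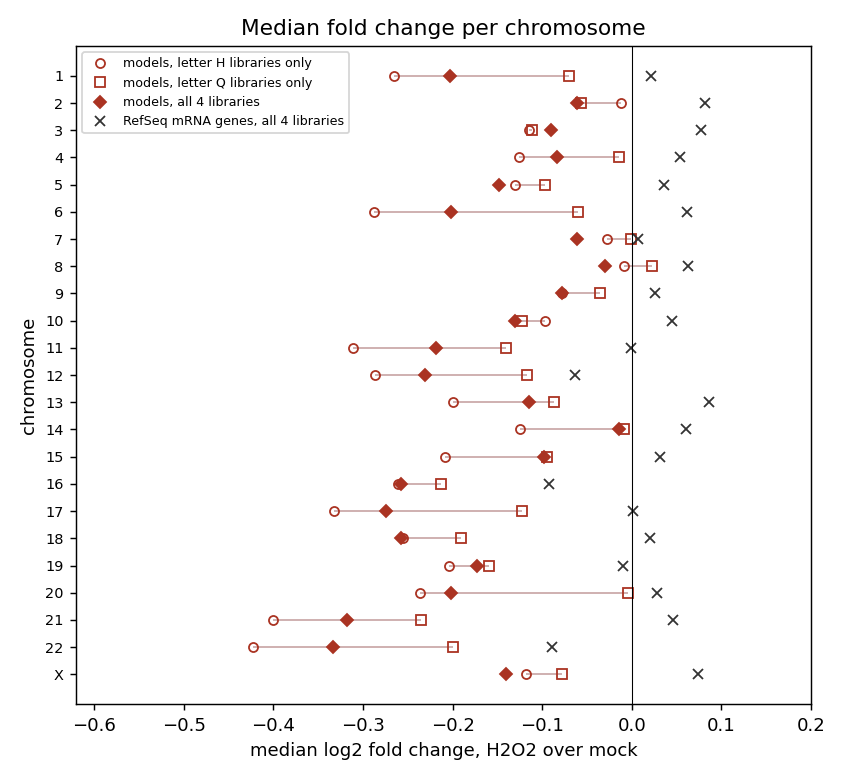
Median log2 fold change of H2O2 over mock (x axis) for each chromosome (y axis), for the long intergenic models over all 4 libraries (filled diamonds), within the letter H libraries (open circles) and within the letter Q libraries (open squares), and for RefSeq mRNA genes (crosses). All 23 filled diamonds lie below 0 and left of the cross of their chromosome, and 22 of 23 letter Q medians lie below 0. The mRNA genes are not matched to the models by read count.

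Expression itself was uneven along the genome. With Y left out, members were most frequent relative to tested mRNA genes on chromosome 21, at 84.96 per 100 mRNA genes, and chromosome 15, at 75.3, and least frequent on chromosome 11, at 22.8. Of the distinct rows of a chromosome, again without Y, the share that reached the minimum ran from 24.95% on chromosome 4 to 54.3% on chromosome 19. On chromosome 17 it was 53.5%, on chromosome 15 it was 52.5% and on chromosome 1 it was 51.8%. The strands were nearly even, with 3183 members on plus and 3104 on minus. Chromosome Y had 16 members.

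Of the members, 25 had a gene name in the identifier, from 7 genes, and 13 more matched a RefSeq symbol through a listed synonym. These models were chosen by their identifier, outside the rule on the size of the difference. Of the list of 34 known long noncoding RNAs, 5 could be matched by name to a member (H19, HOTAIR, HOTTIP, GAS5 and LINC00261). Most models carry a catalogue number only, so the other 29 may be present without being recognised. In 2 of these 5, HOTAIR and HOTTIP, the model with the most reads was lower in both H2O2 libraries, in 0 higher. Over all features tested the shares without overlap were 21.6% lower and 18.8% higher, and over the members 31.2% and 12.7%. With 5 RNAs the counts are too small to set apart from these shares, so they are not read as a result about known long noncoding RNAs.

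HOTTIP is transcribed from the 5′ end of the HOXA cluster and is known for recruiting an H3K4 methyltransferase complex to HOXA genes. It was represented by 5 models on chromosome 7. The promoter printed above is that of the RefSeq gene of this name, and without positions it is not known whether these models start there. TCONS_00040338_HOTTIP measured 1.76 and 1.54 CPM in mock H and Q and 0.415 and 0.882 CPM in H2O2 H and Q. TCONS_00040339_HOTTIP measured 1.196 and 0.949 CPM in mock and 0.174 and 0.437 CPM in H2O2, the latter from 18 and 52 reads. In all 5 models both H2O2 libraries were below both mock libraries, with H2O2 H the lowest. The log2 fold changes ran from −1.80 to −0.89 (SE 0.38 to 0.53), and the lowest adjusted p by edgeR was 0.687.

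HOTAIR, transcribed from the HOXC cluster and known for binding Polycomb repressive complexes, had 11 models on chromosome 12. TCONS_00079054_HOTAIR, with the most reads of them, measured 7.51 and 6.55 CPM in mock H and Q and 4.35 and 5.16 CPM in H2O2 H and Q, a log2 fold change of −0.56 (SE 0.24, adjusted p 0.689). The groups did not overlap in 10 of the 11 models, all lower in H2O2. In the remaining one, TCONS_00079053_HOTAIR, mock H at 1.90 CPM lay below H2O2 Q at 2.02 CPM. The 11 log2 fold changes lay between −0.57 and −0.33, a narrower range than that of the HOTTIP models. The 11 models carry 1 gene name, so they are not separate observations.

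H19, an imprinted RNA that is abundant in fetal liver, was low here and followed the letters. TCONS_00061606_H19 measured 0.670 CPM in mock H and 0.118 in mock Q, and 0.898 in H2O2 H and 0.185 in H2O2 Q, from 65, 14, 93 and 22 reads. Both Q libraries were below both H libraries, so the groups overlapped. The 5 H19 models had log2 fold changes of 0.32 to 0.67 with SE of 1.02 to 1.09. Their difference between letters was larger: TCONS_00061606_H19 was lower in Q than in H by −1.82 in mock and by −1.81 in H2O2, on the log2 scale. That model reached the minimum of reads through the letter H libraries alone, so its difference between letters is partly set by the rule.

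GAS5, the host transcript of several small nucleolar RNAs, measured 396 and 237 CPM in mock H and Q and 429 and 323 CPM in H2O2 H and Q. The groups overlapped, and the log2 fold change was 0.25 (SE 0.33). KCNQ1OT1, the imprinted RNA antisense to KCNQ1, measured 14.3 and 28.7 CPM in mock and 9.97 and 20.8 CPM in H2O2. It was lower in H2O2 within both letters, by −0.51 and −0.46, but its Q libraries were further above its H libraries (1.004 in mock, 1.06 in H2O2), so the groups overlapped. GNASAS, antisense to GNAS, measured 1.58 and 1.93 CPM in mock and 1.14 and 1.43 CPM in H2O2, and both H2O2 values were below both mock values. TSIX, the antisense partner of XIST, measured 460 and 351 CPM in mock and 374 and 299 CPM in H2O2; without strand, its reads and those of its partner cannot be told apart.

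LINC01419 on chromosome 8, a long noncoding RNA described in liver cancer, was higher in both H2O2 libraries. TCONS_00014497, its model, measured 43.3 and 38.5 CPM in mock H and Q and 98.9 and 57.2 CPM in H2O2 H and Q. The groups did not overlap, and the log2 fold change was 0.93 (SE 0.31, adjusted p 0.687); without H2O2 H it was 0.48. LINC01163 on chromosome 10 went the other way. TCONS_00017722, its model, measured 1.66 and 1.24 CPM in mock and 0.821 and 0.680 CPM in H2O2, with a log2 fold change of −0.95 (SE 0.33). LINC01232 was lower in both H2O2 libraries by a smaller amount, −0.31.

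The groups overlapped for the other 10 models matched by synonym. LINC00261, a liver and endoderm RNA next to FOXA2, measured 156 and 65.8 CPM in mock H and Q and 117 and 98.9 CPM in H2O2 H and Q. Its mock libraries lay on either side of both H2O2 libraries, and the log2 fold change was −0.04 (SE 0.43). THRIL, an RNA that binds hnRNPL, had closely spaced values of 24.9 and 22.4 CPM in mock and 21.9 and 23.9 CPM in H2O2 (−0.05, SE 0.19). LINC01031, LINC01564, MICB-DT, RHOXF1P1, FENDRR, LINC01152, LINC01415 and NALT1 had log2 fold changes of −0.43 to 0.25, each with an SE of 0.34 or more.

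**Figure D4:**
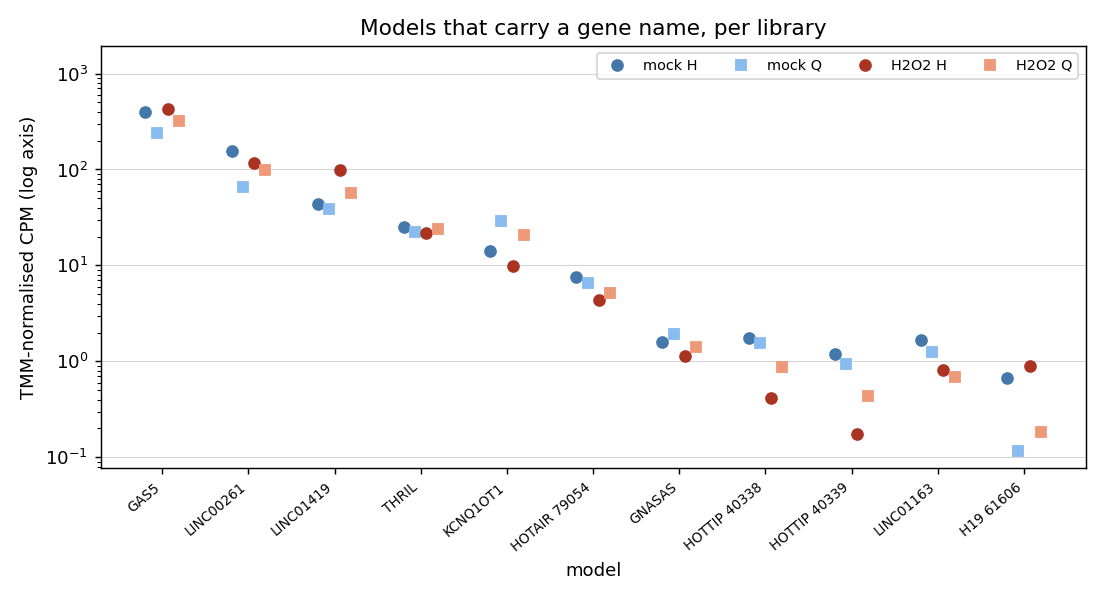
TMM-normalised CPM on a log axis (y axis) of 11 models that carry a gene name (x axis; digits after a name are part of the model identifier), with mock in blue, H2O2 in red, letter H as circles and letter Q as squares. Both H2O2 libraries lie below both mock libraries for the HOTTIP, HOTAIR, GNASAS and LINC01163 models shown and above them for LINC01419, while H19 and KCNQ1OT1 separate by letter.

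Among models with at least 50 reads in every library and groups that did not overlap, the 8 largest differences in each direction were found in models with no gene name. Of the lower ones, TCONS_l2_00021911 on chromosome 4 measured 3.87 and 2.80 CPM in mock H and Q and 0.502 and 1.10 CPM in H2O2 H and Q. Its log2 fold change was −2.05 (SE 0.47, adjusted p 0.687). TCONS_l2_00021912, its neighbour in the catalogue, had 3.33 and 2.69 CPM in mock and 0.483 and 0.982 CPM in H2O2 (−2.03, SE 0.43). Both models were lowest in H2O2 H, and mock exceeded H2O2 in each letter.

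On chromosome 5, TCONS_l2_00022743, TCONS_l2_00023629, TCONS_l2_00023630 and TCONS_l2_00023631 had 1 profile. TCONS_l2_00023629, with the most reads of the 4, measured 51.8 and 21.0 CPM in mock H and Q and 11.1 and 9.95 CPM in H2O2 H and Q. The H2O2 libraries were close together while mock H was far above mock Q. The 4 log2 fold changes were −1.82, −1.79, −1.78 and −1.83 in the order of the models, and for TCONS_l2_00023629 the value without mock H was −0.998. The remaining lower models were TCONS_l2_00025500 on chromosome 6 (−1.72, SE 0.50) and TCONS_l2_00008968 on chromosome 15 (−1.67, SE 0.73). TCONS_l2_00008968 had 3.61 CPM in mock H and 0.823 in mock Q, against 0.792 and 0.596 in H2O2, and without mock H its log2 fold change was −0.25.

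The 8 largest higher models had smaller differences, with log2 fold changes of 1.12 to 1.53. TCONS_l2_00012208 on chromosome 18 measured 1.29 and 0.546 CPM in mock H and Q and 3.94 and 1.34 CPM in H2O2 H and Q. Its H2O2 Q value was barely above its mock H value, and without H2O2 H its log2 fold change of 1.53 (SE 0.68) became 0.55. TCONS_00012446 on chromosome 6 had the closest replicates, at 0.732 and 0.772 CPM in mock and 1.55 and 1.71 CPM in H2O2 (1.12, SE 0.29, adjusted p 0.687). TCONS_00027949 and TCONS_l2_00016539 on chromosome 20 had log2 fold changes of 1.25 and 1.19. On chromosome 8, TCONS_l2_00028187 had 1.16, and TCONS_00015353 and TCONS_00015354, which have consecutive numbers, had 1.14 and 1.12. TCONS_l2_00012428 on chromosome 19 had 1.15.

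**Figure D5:**
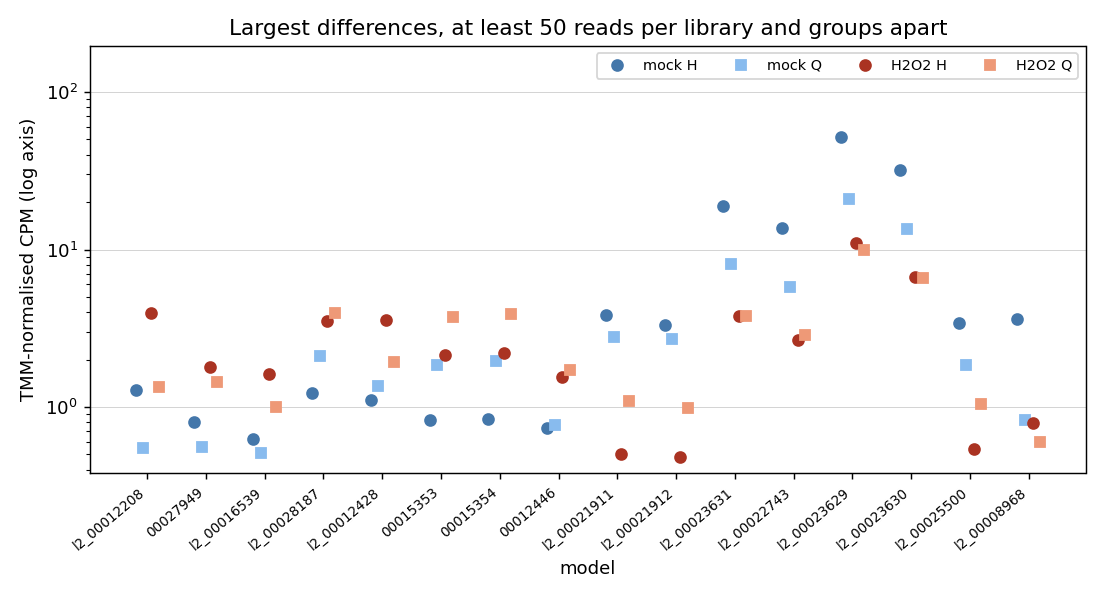
TMM-normalised CPM on a log axis (y axis) of the 8 models with the largest higher and the 8 with the largest lower log2 fold change (x axis, catalogue number), among models with at least 50 reads in every library and groups that do not overlap; colours and symbols mark group and letter. The 4 chromosome 5 models sit high in mock H and have nearly equal H2O2 values; TCONS_l2_00021911 and TCONS_l2_00021912 are lowest in H2O2 H.

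The 4 models with the largest spread between libraries of 1 group, among those with at least 50 reads in every library, differed by more than any of these. TCONS_l2_00009764 on chromosome 16 had 1637 reads in mock H, 77 in mock Q, 92 in H2O2 H and 71 in H2O2 Q. One library was high and the other 3 were alike, so its log2 fold change of −3.56 (SE 1.44) became 0.20 without mock H. TCONS_00008646, TCONS_00008647 and TCONS_00008649 on chromosome 4 shared a profile that was high in mock H and low in mock Q. TCONS_00008647 measured 17.6 and 1.75 CPM in mock and 7.11 and 5.64 CPM in H2O2, so that both H2O2 libraries lay between the mock libraries; its log2 fold change of −0.60 became 1.87 without mock H.

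The 23 members that DESeq2 called (0.366% of members, beside 0.764% of all features tested) lay on 7 chromosomes, with 9 on chromosome 4 and 5 on chromosome 5; they are named here by that call, after their values were seen. TCONS_00011203 on the minus strand of chromosome 6 had the lowest adjusted p (4.30e-18 by DESeq2). It had 377 reads in mock H and 341 in mock Q, against 13 in H2O2 H and 15 in H2O2 Q. Its levels were 3.89 and 2.86 CPM in mock and 0.126 and 0.126 CPM in H2O2, and its log2 fold change by edgeR was −4.73 (SE 0.36, adjusted p 0.402). It reached the minimum of reads through the mock libraries alone. The 2 called higher were TCONS_l2_00008202 on chromosome 14 and TCONS_00009563 on chromosome 5. TCONS_l2_00008202 had 58 and 21 reads in mock and 459 and 371 in H2O2. TCONS_00009563 had 9 and 17 reads in mock and 62 and 267 in H2O2, and reached the minimum through the H2O2 libraries alone. Of the 23, TCONS_l2_00009929 and TCONS_l2_00021193 also reached it through the mock libraries alone, so that in these 4 models a difference is partly set by the rule.

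Among the lower calls, 6 models on the minus strand of chromosome 4 (TCONS_l2_00021909 to TCONS_l2_00021912, TCONS_l2_00021192 and TCONS_l2_00021193) had log2 fold changes by edgeR of −2.10 to −2.03. On the minus strand of chromosome 11, TCONS_00019120, TCONS_00019579 and TCONS_00019580 had −1.34, −1.51 and −1.43. TCONS_00019579 measured 7.57 and 12.1 CPM in mock H and Q and 2.91 and 3.99 CPM in H2O2 H and Q. TCONS_00024232 on chromosome 16 had close replicates, at 8.35 and 8.13 CPM in mock and 3.50 and 3.10 CPM in H2O2 (−1.32, SE 0.23, adjusted p 0.687 by edgeR and 0.00267 by DESeq2). All of these had groups that did not overlap. They were chosen by a call on the same 4 libraries, so this adds no support.

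Genes of RNA decay and transcript termination were described from a list of 41, all of which were tested. The list was drawn up for noncoding transcripts but also held cytoplasmic mRNA decay factors (XRN1, DCP2, UPF1). It held general factors of mRNA end processing too (CPSF2, CPSF3, WDR33, CSTF2). The median log2 fold change of the 41 genes was 0.27. Both H2O2 libraries were above both mock libraries for 21 of them (51.2%, beside 18.8% of all features tested) and below for 3 (7.32%, beside 21.6%). The 41 genes had many reads (median of the mean count 6066). Among mRNA genes with 1000 to below 10000 reads, 23.5% were higher and 15.7% lower without overlap. Under edgeR 0 passed the adjusted threshold, and 9 had an unadjusted p under 0.05, a class that held 7.08% of all features. ZCCHC7, a subunit of the TRAMP complex that feeds RNA to the exosome, measured 30.9 and 30.4 CPM in mock H and Q and 59.3 and 47.8 CPM in H2O2 H and Q (0.81, SE 0.20). EXOSC5 (0.67), EXOSC2 (0.60) and EXOSC9 (0.55), core subunits of the exosome, were higher in both H2O2 libraries too. So were INTS12 (0.59), PAPD5 (0.58) and SKIV2L2 (0.56). In the core subunits EXOSC4 (0.11) and EXOSC8 (0.38) the groups overlapped. EXOSC6, another core subunit, was lower at 22.2 and 18.8 CPM in mock and 14.1 and 12.8 CPM in H2O2 (−0.61, SE 0.21), as were ZFC3H1, which links polyadenylated nuclear RNA to the exosome (−0.32), and PCF11, a termination factor (−0.49). Whether these levels bear on those of the long intergenic models was not tested.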

How the data were processed

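RNA of 4 Huh7 libraries (2 mock, 2 H2O2, grouped by the treatment label) was analysed from the deposited tables. Per the file headers, each table gave 2 values per transcript model, a read count and an FPKM; the authors' deposited counts were whole numbers, and FPKM was used in alternatives only. The authors' deposited alignment summaries gave mapped mates. CASAVA, TopHat 1.3.3, Bowtie 0.12.2 and Cuffdiff were used per the submitters' processing notes, which list the builds hg19, GRCh37 and mm8 without their roles. Counter, annotation and use of strand: not given in the sources used here.

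Members and lists were chosen with earlier results of these data known. The fit used 1 model per gene name (that of the highest summed count), intergenic rows with equal counts on 1 chromosome merged, and at least 50 reads in at least 2 libraries, which left 21465 features. EdgeR 4.0.16 (R 4.3.3) compared H2O2 with mock by its two-sided quasi-likelihood test after TMM scaling (factors 0.935 and 1.10 in mock, 0.917 and 1.06 in H2O2, letter H first), with treatment as the sole term, 2 residual and 3.05 prior degrees of freedom and Benjamini-Hochberg adjustment over all features. The common biological coefficient of variation was 0.287. The fit was tested on simulated data with a smaller spread than that of these libraries, which does not show how it performs at their spread. Within-letter log2 ratios used CPM plus 0.1.

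Named models followed a rule: any past the threshold (0 here), the 10 with the highest mean CPM, the 8 of largest difference each way with at least 50 reads in every library and groups that did not overlap, and the 4 of largest spread within a group; models of Y were counted, not named. Models with a gene name were taken by identifier. The lists were known long noncoding RNAs, genes of RNA decay and transcript termination, and markers of hepatocytes, blood cells, endothelium and fibroblasts. Promoters came from the RefSeq table of GRCh38.p14. Alternatives were other scaling (DESeq2 1.42.0, or none), other filters and minimums, the letter as a block, summed models, limma 3.58.1 on log2(FPKM + 1) and leaving out each library; near-equal models counted once and the members without those that follow EEF1A1 were chosen after seeing the data. Python 3.11.15 drew the figures with matplotlib 3.10.9.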

Additional observations from a re-analysis of the deposited data

How the results depend on the processing

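With 2 libraries a group, precision was limited by the spread between libraries rather than by reads in the larger models; in models near 50 reads counting error adds to it. The number of members called at 5% was 0 under each alternative run except DESeq2 (23 members, 6 of them among the named models) and the letter as a replicate block (1 member, TCONS_00011203, of 17 features). The letters share only a letter with each other: deviations of same-letter libraries from their group means correlated at 0.608 over all features and 0.491 over the members, but 2 pairs cannot establish a pairing. The members' median log2 fold change was −0.065 on log2(FPKM + 1) and between −0.22 and −0.10 when 1 library was left out. Leaving out 1 library gave 2462 to 3194 members lower and 1408 to 1729 higher without overlap, because fewer values have to be separated. Of 345 chromosome medians under the alternatives 18 were above 0, and of 60 medians of read count classes 1 was. Of 68 named models 38 kept 1 direction under every alternative run, and 60 of 743 values had the other sign; the cause was not tested. With the block these were TCONS_l2_00030085 (0.0080), TCONS_l2_00029098 (0.0067), TCONS_l2_00026417 (0.0079), TCONS_00008647 (0.15), TCONS_00008649 (0.13), TCONS_00008646 (0.088) and the LINC00261 model TCONS_00027846 (0.084). On log2(FPKM + 1) they were TCONS_l2_00030085 (0.086), TCONS_l2_00029098 (0.052), TCONS_l2_00026417 (0.030), TCONS_00008647 (0.14), TCONS_00008649 (0.094), TCONS_00008646 (0.15), the MICB-DT model TCONS_00012692 (−0.078), the FENDRR model TCONS_00024240 (0.11), the LINC01152 model TCONS_00025128 (−0.081) and TCONS_00027846 (0.38). With 1 library left out, where a lone library is assumed to vary like the other group, the ranges that crossed 0 were −0.55 to 0.68 for TCONS_l2_00030085 and TCONS_l2_00029098, −0.54 to 0.68 for TCONS_l2_00026417, −4.51 to 0.20 for TCONS_l2_00009764, −1.47 to 1.87 for TCONS_00008647, −1.47 to 1.82 for TCONS_00008649 and −1.46 to 1.73 for TCONS_00008646. Among named RNAs they were −0.59 to 1.74 for LINC01564 (TCONS_00011314), −0.12 to 0.029 for THRIL (TCONS_00020260), −0.54 to 0.71 for TCONS_00027846, −0.076 to 0.66 for TCONS_00013744_GAS5, −1.10 to 0.11 for TCONS_00063838_KCNQ1OT1, −0.30 to 0.62 for RHOXF1P1 (TCONS_00017086), −0.41 to 0.034 for TCONS_00024240, −0.40 to 1.16 for NALT1 (TCONS_l2_00029132), −0.24 to 0.58 for LINC01031 (TCONS_00000361), −0.25 to 0.38 for TCONS_00012692 and −0.16 to 0.33 for TCONS_00025128. For H19 they were −0.79 to 2.52 (TCONS_00061602_H19), −0.93 to 2.17 (TCONS_00061603_H19), −1.07 to 2.38 (TCONS_00061604_H19), −1.03 to 2.04 (TCONS_00061605_H19) and −1.07 to 2.18 (TCONS_00061606_H19). On chromosome 3 they were −0.12 to 0.35 for TCONS_00007196 and TCONS_00007197, −0.13 to 0.36 for TCONS_00006917, TCONS_00006556, TCONS_00006919 and TCONS_00006918, and −0.13 to 0.34 for TCONS_00006916.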
